A study of Mus musculus with 4 samples.

Results

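The 54 genes described here encode the machinery of DNA replication and cell division, and were chosen by name as a fixed list of replication licensing factors, replication enzymes, cyclins, mitotic kinases, centromere and spindle proteins and cytokinesis proteins. The rule itself uses no measured value, but the list was chosen with earlier results of these data known. No pattern in it is therefore independent support. They are 54 of the 30854 gene symbols on the array and are read by 106 of its 45281 probes. The array lists them in capitals (MCM2, PCNA, KIF22), and the mouse form of each symbol (Mcm2, Pcna, Kif22) is used here. RNA came from the cerebellum of untreated Swiss mice at postnatal day 7, dissected into anterior lobes (2 samples) and posterior lobes (2 samples), and each sample was hybridised to its own single-colour Illumina MouseWG-6 v2.0 bead array. The question was whether gene expression in the anterior cerebellar lobes differs from that in the posterior lobes at this age. The labels give neither the number of animals behind a sample nor whether the samples of a lobe came from separate animals, so the p-values measure the spread between these samples, which may be technical.

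A dividing cell first licenses its replication origins by loading the MCM helicase onto them, copies its DNA in S phase under cyclin E and E2F control, and then enters mitosis under cyclin A and cyclin B, when a spindle pulls the chromosomes apart and the cell is cleaved. Most of these genes are transcribed only in cycling cells, and many of the mitotic genes only in the later part of the cycle. In the early postnatal cerebellum the main dividing population is the granule cell progenitors of the external granule layer at the surface of each folium, alongside dividing glial precursors in the deeper tissue.

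All 54 genes had at least 1 probe. A probe was tested when its detection score, which is 1 minus the detection p-value, exceeded 0.95 on at least 2 of the 4 arrays, and 69 probes of 44 genes met this, 65 of them on all 4 arrays. The filter left out 37 probes, with raw intensities between 53.4 and 135.8, beside array medians over all probes of 110.2 to 129.6. The 10 genes without a tested probe were Gmnn, Prim1, Ccna2, Ccnb2, Nek2, Cenpe, Bub1, Ttk, Ube2c and Kif20a, whose probes were not detected on enough arrays. The number of arrays limits the precision, and each value of a tested member probe averaged 24 to 71 beads (median 38), with a bead standard error of 1.96% to 7.56% of the signal.

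The cell cycle genes were slightly and broadly higher in the posterior lobes. Of the 69 tested probes, 66 (95.7%) had a higher mean in the posterior lobes, against 50.6% of all 21726 tested probes. All 69 were read in the same 4 samples, so they are not separate observations of a lobe difference. The split of 66 higher and 3 lower became 55 and 13 of 68 without anterior replicate 1, and 88 and 18 of 106 without the filter on dim probes. Over the 65 probes detected on all 4 arrays it was 62 and 3. The median posterior minus anterior difference was 0.17 on the log2 scale, or 1.13-fold, against a median of 0.0023 over all tested probes. Single differences ran from -0.20 to 0.35, so that the largest was 1.27-fold. The median standard error of a single difference was 0.11, the smallest 0.056 and the largest 0.20.

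By the thresholds of the study's methods, more than 1.2-fold and an unadjusted p under 0.05, applied here to limma's p, 10 probes of 9 genes were higher in the posterior lobes and none was lower. That was 14.5% of the member probes, where 3.3% of all tested probes passed the criterion in that direction 5% in the other and 8.29% in either. None of the 69 passed a Benjamini-Hochberg adjusted p of 0.05 over all 21726 probes in limma, where the lowest member value was 0.238, and 0.106% of all probes passed. At an unadjusted limma p under 0.05 there were 17 member probes (24.6%), against 10.1% of all probes, and the methods' t-test also left none after adjustment. With the methods' t-test in place of limma 3 member probes passed the criterion as higher, where 1.35% of all probes did. In limma without normalisation 1 member probe did, against 2.29% of all probes, so the members held no excess there. The count of 10 changed whenever 1 array was left out. Such a fit leaves a single array in 1 lobe, so only the size of the difference is given for it. The member median was then 0.16 to 0.19 (log2), where that of all probes was -0.0064 to 0.0087.

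In 46 of the 69 probes (66.7%) each posterior array was above each anterior one, as against 21.1% of all probes, and in the other 23 the lobes overlapped. No member probe had both posterior arrays below both anterior arrays, an arrangement that 21.5% of all probes showed. With 2 arrays per lobe an exact two-sided permutation test of a single probe cannot give a p below 0.33. All tested probes were higher in the posterior lobes for 41 genes. However, 27 of the 44 tested genes had a single tested probe, which cannot show agreement between probes. Among the 17 genes with several tested probes, the probes differed in sign for 3 (Cdc20, Foxm1 and Melk). In the rest of those 17 all probes were higher in the posterior lobes. Reading each gene by its brightest tested probe alone left 43 of 44 genes higher, with a median of 0.18.

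**Figure D1:**
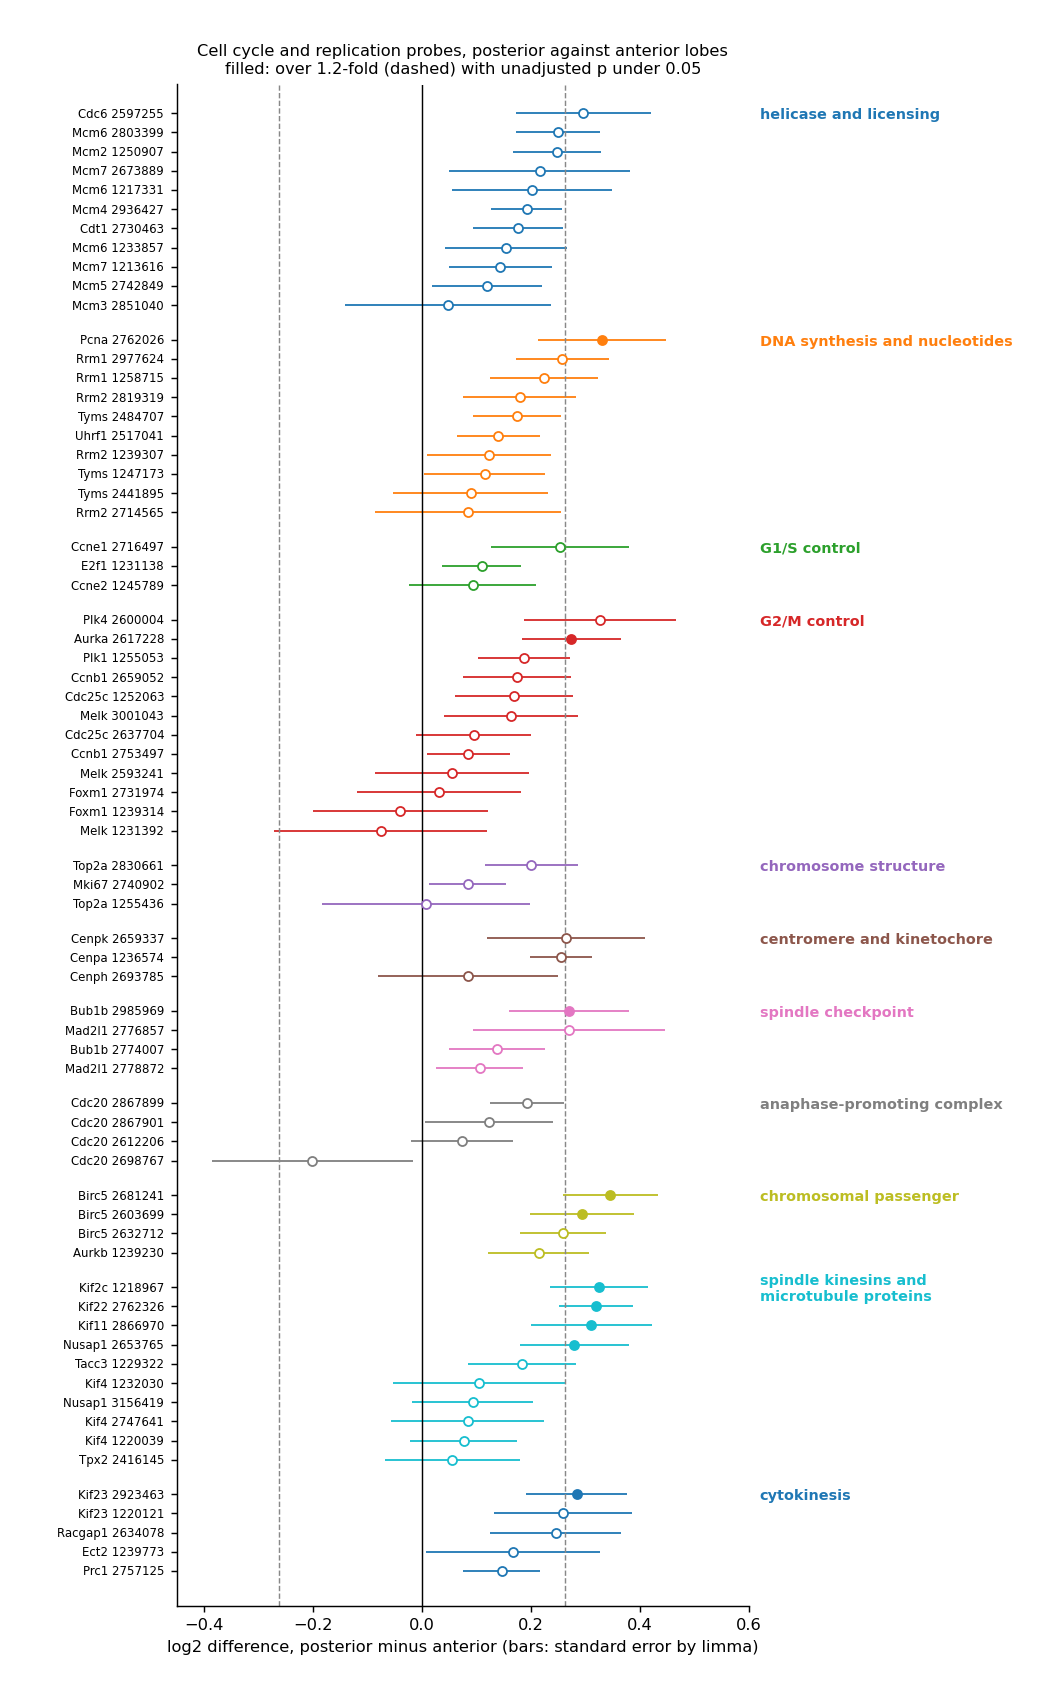
Posterior minus anterior difference (log2, x axis) of each of the 69 tested probes, grouped by the role of the gene, with bars of 1 standard error on each side from limma and filled points for the 10 probes past 1.2-fold with an unadjusted p under 0.05. All but 3 points (Cdc20, Melk and Foxm1) lie to the right of 0, and all filled points do.

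**Figure D2:**
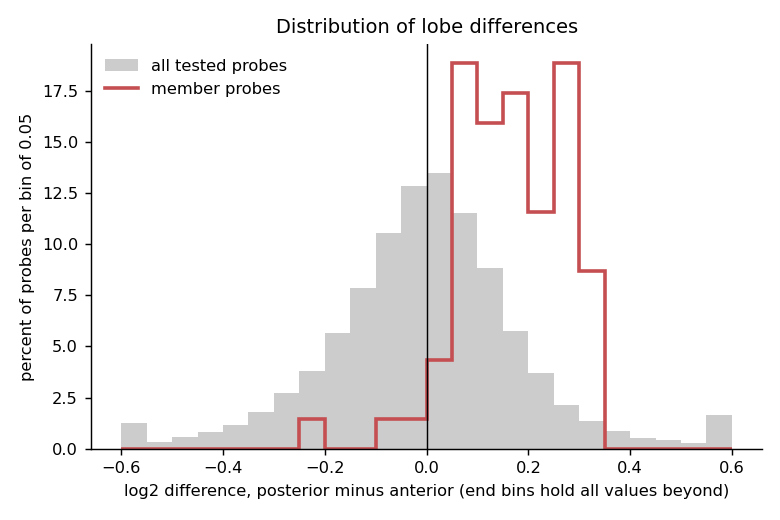
Distribution of the posterior minus anterior difference (log2, x axis) over the 21726 tested probes and over the 69 member probes, each as the percent of its own probes per bin (y axis). The members are centred at 0.17 and all probes at 0.0023, and no member lies beyond 0.35.

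The shift was seen on both arrays of each lobe. Taking each probe's deviation from its own mean over the 4 arrays, the median over the members was -0.11 and -0.090 (log2) on anterior replicates 1 and 2, and 0.075 and 0.091 on posterior replicates 1 and 2. The summed normalised intensity of the 69 probes was 129040 and 132870 units in the anterior lobes and 147060 and 149470 in the posterior lobes. The lowest of the 4 arrays was an anterior one for 65 probes, and the highest was a posterior one for 58. Over all tested probes, the lowest was anterior replicate 1 for 24.9% and anterior replicate 2 for 30.7%. The highest was posterior replicate 1 for 21.8% of them and posterior replicate 2 for 22.9%. The anterior arrays differed from each other more than the posterior arrays did, with a standard deviation of the within-lobe difference over member probes of 0.21 against 0.15 (log2), and of 0.318 against 0.203 over all probes. The gap between the anterior arrays exceeded the difference between lobes in 30 of the 69 member probes, against 59.8% of all probes. Because these are pieces of whole tissue, fewer cells of a type and less RNA per cell cannot be told apart.

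**Figure D3:**
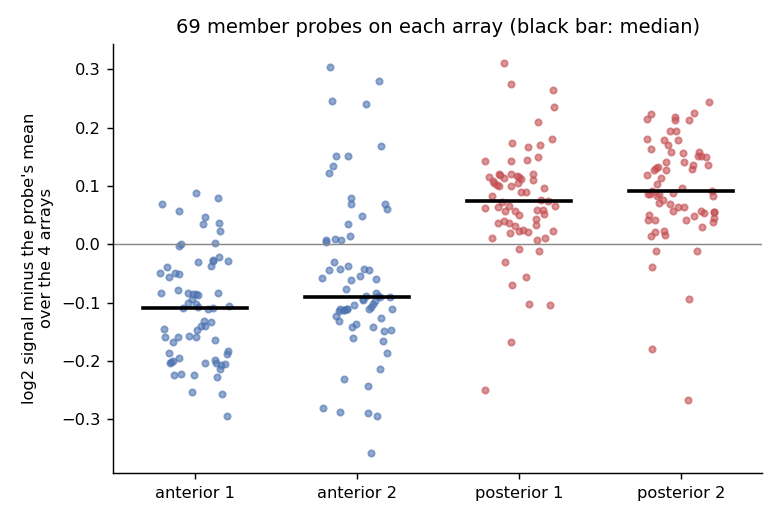
Deviation of each of the 69 member probes from its own mean over the 4 arrays (log2 normalised intensity, y axis) on each array (x axis), with 1 point per probe and a bar at the median. The medians are -0.11 and -0.090 on the anterior arrays and 0.075 and 0.091 on the posterior arrays, and anterior replicate 2 has the widest scatter.

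The difference was found at each level of brightness. In 4 bins of mean log2 intensity (below 8, 8 to 10, 10 to 12, and 12 and above), 9 of 9, 20 of 22, 27 of 28 and 10 of 10 member probes were higher in the posterior lobes, where the dimmest bin includes the Rrm1 probe that passed the filter through the posterior arrays alone. The member medians in these bins were 0.17, 0.11, 0.18 and 0.17, and the medians of all probes in the same bins were 0.0070, -0.0010, 0.00050 and 0.0018.

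The promoters of these genes are known for a few short elements, the CCAAT box bound by NF-Y, the cell cycle homology region (CHR) bound by the DREAM and MuvB complexes in late cell cycle genes, and the E2F site of early ones. RefSeq promoters (GRCm38.p6, 250 bases before to 50 after the start) were matched for 45 of the 54 genes, as 51 promoters, and searched on both strands for CCAAT, for TTTGAA or TTCGAA as the CHR, and for TTTCCCGC, TTTGGCGC, TTTCGCGC or TTTGCCGC as the E2F site. The promoters of Mcm4, Gmnn, Ccne2, Ccna2, Cdc25c, Foxm1, Aurkb, Tpx2 and Kif20a were not analysed here. The windows below are shown because they carry these elements and belong to the kinesins Kif22 and Kif11, which passed the criterion, to Cenpa, which had the second-lowest p of the members, and to the helicase subunit Mcm6. The elements are in capitals, on whichever strand they were found. They run 5′ to 3′ along the gene's strand, from 250 bases before the start to 30 after it. Kif22 lies at chr7:127042391-127042670 (minus strand), Kif11 at chr19:37376132-37376411 (plus strand), Cenpa at chr5:30666636-30666915 (plus strand) and Mcm6 at chr1:128359676-128359955 (minus strand).
Kif22: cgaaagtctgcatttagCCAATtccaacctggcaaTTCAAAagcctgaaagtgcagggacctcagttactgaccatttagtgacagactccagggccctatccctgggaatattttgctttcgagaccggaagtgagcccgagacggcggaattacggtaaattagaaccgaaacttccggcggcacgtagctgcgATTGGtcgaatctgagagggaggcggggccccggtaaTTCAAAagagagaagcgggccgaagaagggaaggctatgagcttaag
Kif11: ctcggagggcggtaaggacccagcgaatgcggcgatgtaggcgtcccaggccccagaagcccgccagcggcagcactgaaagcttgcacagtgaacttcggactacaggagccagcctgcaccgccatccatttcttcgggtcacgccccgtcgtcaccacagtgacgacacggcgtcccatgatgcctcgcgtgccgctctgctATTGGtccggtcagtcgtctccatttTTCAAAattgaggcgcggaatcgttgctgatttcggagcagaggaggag
Cenpa: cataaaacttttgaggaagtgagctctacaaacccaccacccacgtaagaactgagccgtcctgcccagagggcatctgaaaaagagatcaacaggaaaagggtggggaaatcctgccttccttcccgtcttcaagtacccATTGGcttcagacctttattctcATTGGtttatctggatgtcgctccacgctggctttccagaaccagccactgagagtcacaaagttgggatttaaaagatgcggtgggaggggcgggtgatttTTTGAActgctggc
Mcm6: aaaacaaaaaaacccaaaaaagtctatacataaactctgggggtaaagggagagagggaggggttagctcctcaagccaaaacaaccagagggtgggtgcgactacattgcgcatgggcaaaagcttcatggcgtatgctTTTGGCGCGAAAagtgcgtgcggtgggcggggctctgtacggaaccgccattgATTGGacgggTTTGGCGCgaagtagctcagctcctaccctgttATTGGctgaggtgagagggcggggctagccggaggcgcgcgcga

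The capitals in the Kif22, Kif11 and Cenpa windows are CCAAT boxes (CCAAT, or ATTGG on the other strand) and CHR elements (TTTGAA, or TTCAAA on the other strand). Those in Mcm6 are 2 CCAAT boxes and 3 E2F sites, 2 of which overlap each other on opposite strands. The CCAAT box was in 39 of the 51 member promoters (76.5%) against 37.4% of all 32851 RefSeq promoters, and the CHR in 23 (45.1%) against 19.2%. The E2F letters were in 7 member promoters (13.7%) against 2.26% of all. The elements divided by phase. All 7 promoters with E2F letters belonged to the replication and G1/S genes (7 of 17, or 41.2%) and 0 of 34 mitotic promoters held them, while the CHR was in 21 of the 34 mitotic promoters (61.8%) and in 2 of the 17 others (11.8%). A CCAAT box together with a CHR was in 20 mitotic promoters (58.8%), against 7.52% of all promoters. A match of letters is a description and not a shown binding site.

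The lobe difference, in contrast to the promoter elements, was of like size in both phases. The 24 probes of replication and G1/S genes were all higher in the posterior lobes with a median difference of 0.18 (log2), and 42 of the 45 probes of mitotic genes were higher with a median of 0.17. The criterion was passed as higher by 1 of the 24 replication and G1/S probes and by 9 of the 45 mitotic probes. Of all tested probes 3.3% passed it in that direction, and the replication count was near that share. The difference between the phases was not tested.

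Among the helicase and licensing genes, 11 probes of 8 genes were tested and all were higher in the posterior lobes, by 0.048 to 0.30 (log2, median 0.19), but none passed the criterion. The 6 MCM subunits, which together form the replicative helicase, gave 9 probes with a median of 0.19, and the lobes did not overlap in 4 of them. Mcm2 (ILMN_1250907) read 11.06 and 11.13 on the log2 intensity scale in the anterior lobes and 11.34 and 11.35 in the posterior lobes. Its difference of 0.25 ± 0.080 (SE, n = 2 per lobe) did not pass the adjusted p in limma (0.409), although the lobes did not overlap. Mcm5 (ILMN_2742849) read 12.40 and 12.65 in the anterior lobes and 12.69 and 12.60 in the posterior lobes, which overlap, and its difference was 0.12 ± 0.10 (limma adjusted p 0.72). For Mcm5 the low value was that of anterior replicate 1 alone, and without that array the difference was -0.0092. Mcm6, whose promoter is printed above, had 3 probes with differences of 0.15, 0.25 and 0.20, and Mcm4 had 1 at 0.19 with no overlap. Cdc6, which loads the helicase onto origins, had the largest difference of this group at 0.30 ± 0.12, with anterior log2 intensities of 8.19 and 8.06 and posterior ones of 8.48 and 8.36. Cdt1, its partner in loading, differed by 0.18.

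The genes of DNA synthesis and nucleotide supply gave 10 tested probes of 5 genes, all higher in the posterior lobes with a median of 0.16 (log2). Pcna, the sliding clamp of the DNA polymerases, was the 1 replication gene past the criterion. Its probe (ILMN_2762026) read 7.54 and 7.38 (log2 intensity) in the anterior lobes and 7.73 and 7.85 in the posterior lobes, a difference of 0.33 ± 0.12 (limma p 0.0312, adjusted 0.441). The lobes did not overlap, but the signal was dim. Rrm1, the large subunit of ribonucleotide reductase, had a bright probe (ILMN_2977624) that read 11.70 and 11.83 in the anterior lobes and 12.07 and 11.98 in the posterior lobes. That difference was 0.26 ± 0.08 (limma p 0.023) and lay just under 1.2-fold. A dim Rrm1 probe (ILMN_1258715), at 6.98 and 6.98 against 7.27 and 7.13, was detected on the posterior arrays alone, so the detection filter favoured its sign, and its place among the higher probes is no support. The 3 probes of the small subunit Rrm2 differed by 0.12, 0.085 and 0.18, and those of thymidylate synthase (Tyms) by 0.17, 0.090 and 0.11. Uhrf1, which carries DNA methylation through replication, differed by 0.14.

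The 3 genes of G1/S control were each higher in the posterior lobes without passing the criterion. Cyclin E1 (Ccne1, ILMN_2716497), the partner of Cdk2 at S phase entry, read 8.04 and 8.23 (log2 intensity) in the anterior lobes and 8.38 and 8.40 in the posterior lobes, a difference of 0.25 ± 0.13 (limma adjusted p 0.559). E2f1 (ILMN_1231138), the transcription factor that drives S phase genes, read 12.18 and 12.08 in the anterior lobes and 12.24 and 12.23 in the posterior lobes, a difference of 0.11 ± 0.073 (adjusted p 0.648). Ccne2 differed by 0.093. The lobes did not overlap in any of the 3.

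The kinases and regulators of the G2/M transition gave 12 probes of 7 genes with a median of 0.13 (log2). Aurora kinase A (Aurka, ILMN_2617228), which matures the centrosomes, passed the criterion with 11.08 and 11.07 in the anterior lobes and 11.27 and 11.42 in the posterior lobes. Its difference was 0.27 ± 0.090 (limma p 0.0229, adjusted 0.414). Plk4 (ILMN_2600004), the kinase of centriole duplication, had a larger difference of 0.33 ± 0.14 but missed the criterion at p 0.0589, with anterior values of 8.17 and 7.92 and posterior values of 8.44 and 8.30. Plk4 thus missed the criterion by its spread and not by its size. Cyclin B1 (Ccnb1), the activator of Cdk1, differed by 0.085 ± 0.076 on one probe (ILMN_2753497, 11.44 and 11.41 against 11.49 and 11.53) and by 0.17 ± 0.099 on the other (ILMN_2659052, 9.99 and 10.08 against 10.24 and 10.19). Both of its probes kept the lobes apart. Plk1 differed by 0.19, and the 2 probes of the phosphatase Cdc25c by 0.17 and 0.095.

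Foxm1, the transcription factor of many G2/M genes, showed no difference beyond its error. Its probes read 10.07 and 10.51 in the anterior lobes and 10.20 and 10.30 in the posterior lobes (ILMN_1239314), and 10.12 and 10.45 against 10.20 and 10.44 (ILMN_2731974). The differences were -0.039 ± 0.16 and 0.032 ± 0.15 (limma adjusted p 0.954 and 0.96), and in both the anterior arrays enclosed the posterior ones. Melk, a kinase expressed in dividing progenitors, had probes at 0.16, 0.055 and -0.076. The last of them (ILMN_1231392) read 8.69 and 9.18 in the anterior lobes and 8.73 and 8.99 in the posterior lobes (SE 0.20, adjusted p 0.923). The sign of this probe depended on the array removed. It stayed negative on removal of anterior replicate 1 (-0.32) or posterior replicate 2 (-0.21). It turned positive on removal of anterior replicate 2 (0.17) or posterior replicate 1 (0.055).

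The proliferation marker Ki-67 (Mki67, ILMN_2740902), which coats mitotic chromosomes, had a small difference between the lobes. It read 12.48 and 12.58 (log2 intensity) in the anterior lobes and 12.64 and 12.60 in the posterior lobes, a difference of 0.084 ± 0.071 (limma adjusted p 0.718). The lobes did not overlap, and the difference was 0.032 without anterior replicate 1 and 0.13 without anterior replicate 2. Topoisomerase II alpha (Top2a), which untangles replicated DNA, gave 0.20 ± 0.085 on one probe (ILMN_2830661, 11.99 and 12.08 against 12.16 and 12.32, adjusted p 0.513). On the other (ILMN_1255436) it gave 0.0080 ± 0.19, with 9.93 and 9.79 in the anterior lobes and 10.14 and 9.59 in the posterior lobes. On that probe the posterior arrays were the highest and the lowest of the 4, so the lobes overlapped fully.

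Among centromere and kinetochore genes, Cenpa, the histone H3 variant that marks centromeres, had the smallest standard error of all members. Its probe (ILMN_1236574) read 13.43 and 13.47 (log2 intensity) in the anterior lobes and 13.69 and 13.72 in the posterior lobes, a difference of 0.26 ± 0.056 (limma p 0.00405, adjusted 0.262), just under 1.2-fold. Cenpk differed by 0.26 ± 0.15 and Cenph by 0.085 ± 0.17, and Cenph was dim and overlapped. In the spindle checkpoint, which holds anaphase until all chromosomes are attached, Bub1b passed the criterion on one probe (ILMN_2985969) with 9.69 and 9.74 in the anterior lobes and 9.91 and 10.06 in the posterior lobes. Its difference was 0.27 ± 0.11 (limma p 0.0493, adjusted 0.495), the p nearest to the threshold among the 10, and its other probe gave 0.14. The 2 probes of Mad2l1 differed by 0.11 and 0.27.

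Cdc20, the activator of the anaphase-promoting complex, was the gene whose probes disagreed most. Its brightest probe (ILMN_2867899) read 12.18 and 12.15 in the anterior lobes and 12.33 and 12.38 in the posterior lobes, a difference of 0.19 (limma p 0.0299, adjusted 0.439). Its dimmest (ILMN_2698767) read 8.56 and 8.97 against 8.41 and 8.71, a difference of -0.20 ± 0.18 (adjusted p 0.741), the lowest of all 69. The remaining probes gave 0.12 and 0.073 with overlapping lobes. The range of 0.39 between its probes compares with a median range of 0.090 over the 17 genes with several tested probes.

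The chromosomal passenger complex, which corrects faulty kinetochore attachments and then moves to the cleavage site, had the highest median of any role at 0.28 (log2, 4 probes of 2 genes). All 3 probes of its subunit survivin (Birc5) kept the lobes apart, and 2 passed the criterion. ILMN_2681241 read 10.47 and 10.53 in the anterior lobes and 10.84 and 10.85 in the posterior lobes, and its difference of 0.35 ± 0.087 (limma p 0.00756, adjusted 0.306) was the largest of all members. ILMN_2603699 read 10.48 and 10.53 against 10.73 and 10.87, a difference of 0.29 ± 0.096 (adjusted p 0.412). The last Birc5 probe (ILMN_2632712) read 11.13 and 11.20 against 11.44 and 11.41, which gave 0.26 (adjusted p 0.388) and fell just short of 1.2-fold. These probes read 1 gene in the same samples and are not separate evidence of a lobe difference. Aurora kinase B (Aurkb, ILMN_1239230), the enzyme of the complex, read 10.47 and 10.48 against 10.63 and 10.75, a difference of 0.21 ± 0.092 (adjusted p 0.519).

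The spindle kinesins and microtubule proteins held 4 of the 10 probes past the criterion. Kif22 (ILMN_2762326), a kinesin that binds chromosome arms and pushes them to the spindle equator, read 11.98 and 11.98 (log2 intensity) in the anterior lobes and 12.29 and 12.30 in the posterior lobes. Its difference of 0.32 ± 0.067 had the lowest p of all members (limma p 0.00333, adjusted 0.238). Kif2c (ILMN_1218967), which takes microtubules apart at centromeres, read 10.49 and 10.59 against 10.85 and 10.88, a difference of 0.32 ± 0.091 (adjusted p 0.351). Kif11 (ILMN_2866970), the motor that separates the spindle poles, read 9.89 and 9.98 against 10.15 and 10.33, a difference of 0.31 ± 0.11 (adjusted p 0.443). The promoters of Kif22 and Kif11, printed above, both hold a CCAAT box and a CHR. Of the other genes past the criterion, Aurka, Bub1b and Kif23 also hold both. Pcna holds no CHR, Kif2c holds no CCAAT box, and Birc5 and Nusap1 hold none of the elements searched for. A relation between the elements and the lobe difference was not tested. Nusap1 (ILMN_2653765), which bundles spindle microtubules, read 10.64 and 10.46 against 10.81 and 10.85, a difference of 0.28 ± 0.10 (adjusted p 0.446), while its dim second probe gave 0.093. Not every spindle gene followed, as the 3 probes of the chromokinesin Kif4 differed by 0.084, 0.11 and 0.077 and Tpx2 by 0.056, all with overlapping lobes. Tacc3 differed by 0.18.

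Among the cytokinesis genes, Kif23, a motor of the central spindle, passed the criterion on 1 probe (ILMN_2923463) with 10.68 and 10.78 in the anterior lobes and 10.96 and 11.07 in the posterior lobes. The difference was 0.28 ± 0.093 (limma p 0.0227, adjusted 0.414), and its other probe gave 0.26. Racgap1, its partner in the central spindle, differed by 0.25, Prc1, which bundles the midzone microtubules, by 0.15, and Ect2, which activates RhoA at the cleavage site, by 0.17. The median of the 5 probes was 0.25.

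Genes of the cell cycle outside the 54 were read from 4 further lists. Beside their counts, 3.3% of all tested probes passed the criterion as higher and 5% as lower. Other replication genes (49 tested probes of 36 genes) had a median difference of 0.14 (log2) and 44 probes higher in the posterior lobes, and 5 probes passed the criterion there and none in the other direction. These were Gins2, a helicase cofactor (0.40), the clamp loader subunits Rfc1 (0.36) and Rfc3 (0.39), and thymidine kinase Tk1 (0.31 and 0.30), and the lowest value was that of DNA ligase Lig1 (-0.29). Other mitosis genes (49 tested probes of 37 genes) had a median of 0.19, with 45 probes higher and 7 past the criterion, all higher. They were Cdk1, the mitotic kinase, listed on the array as Cdc2a (0.31), the passenger subunit Cdca8 (0.28 on each of 2 probes), the centromere proteins Cenpl (0.38), Cenpm (0.32) and Cenpp (0.42), and the condensin subunit Ncaph (0.32). None of these probes passed the adjusted p in limma.

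The G1 cyclins, CDKs, E2F and RB genes (43 tested probes of 20 genes) had a median of 0.14 (log2), with 34 higher. Past the criterion were 2 probes, of Cdk2 (0.63) and E2f3 (0.31), which is near the 3.3% of all tested probes. Cyclin D1 (Ccnd1), which couples growth signals to the cycle, gave probe differences of 0.11, 0.032 and -0.27. Cyclin D2 (Ccnd2), another D cyclin, gave 0.35, 0.36 and 0.47, but its replicates differed widely. One of its probes (ILMN_2700168) read 11.06 and 10.04 in the anterior lobes and 11.15 and 10.65 in the posterior lobes, so that the gap within the anterior lobes was larger than that between lobes. Mycn, the oncogene of progenitor growth, was not detected on any array.

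The CDK inhibitors and other genes of cell cycle exit were the most divided list, with 15 of 26 probes of 15 genes higher and 11 lower (median 0.11, log2). Cdkn1c (ILMN_2708203), the CDK inhibitor p57, read 13.29 and 13.61 in the anterior lobes and 12.83 and 12.94 in the posterior lobes. It was the only probe of the 4 lists to pass the criterion as lower in the posterior lobes, with a difference of -0.56 ± 0.11 (limma p 0.00276, adjusted 0.218). In the other direction Gadd45a (0.56) and the phosphatase Cdkn3 (0.33) passed. Of all tested probes 3.3% passed as higher and 5% as lower, so 1 lower probe of 26 is no more than the share of all probes. Cdkn1b, the inhibitor p27, gave 0.52 ± 0.44 and 0.18 ± 0.30 (SE), and neither passed the criterion.

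**Figure D4:**
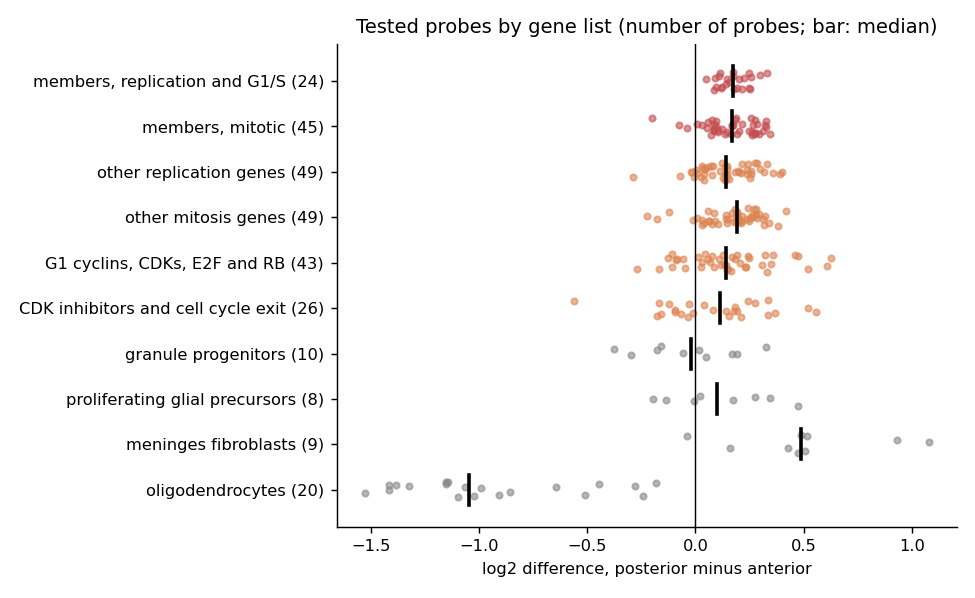
Posterior minus anterior difference (log2) (x axis) of every tested probe of the replication and mitotic members, the 4 further cell cycle lists and 4 cell type marker lists, with the median of each list as a bar. The medians of the member and further cell cycle lists lie between 0.11 and 0.19, and the oligodendrocyte markers stand apart with all 20 probes below 0 and a median of -1.05.

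Markers of the cell types in the tissue were read beside these results. Of the granule cell progenitor markers, Atoh1 and Gli1, which define these cells, were not detected, and the other 6 genes had 10 probes with a median of -0.020 (log2), 5 higher and 5 lower. Their summed normalised intensity was 35829 and 36383 units in the anterior lobes and 35300 and 36171 in the posterior lobes. Without Atoh1 and Gli1 these sums do not measure the number of progenitors. The part of these cells in the cell cycle difference was not tested. Single differences of these 10 probes ran from -0.38 to 0.33. Sfrp1 (-0.38) passed the criterion as lower in the posterior lobes, and none passed it as higher. The markers of differentiating granule neurons summed to 48348 and 45633 against 47345 and 45412, with a median of -0.044, and Grin2c passed the criterion as higher (0.32). Markers of proliferating glial precursors summed to 8245.6 and 7944 in the anterior lobes and 9646.8 and 9955 in the posterior lobes, with 5 of 8 probes higher, 3 lower and a median of 0.098. Among them Pdgfra (0.47, limma adjusted p 0.16) and Egfr (0.34) passed the criterion as higher.

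Markers of oligodendrocytes and of the meninges differed between the lobes by more than the cell cycle genes did. Oligodendrocyte markers were lower in the posterior lobes on all 20 probes of 9 genes (Olig2 was not tested), with a median of -1.05 (log2), sums of 104290 and 103190 against 69184 and 64481, and 5 probes past the adjusted p. By the criterion 18 of these probes were lower, among them probes of Mbp, Mag, Mog, Mobp, Mal, Cnp and Sox10. Markers of the fibroblasts of the meninges were higher on 8 of 9 probes, with a median of 0.49 and sums of 15557 and 17523 against 23210 and 26734, and a Dcn probe passed the adjusted p. By the criterion 6 probes, of Dcn, Lum, Col3a1 and Igf2, were higher. Their part in the cell cycle difference was not tested. Purkinje cell markers summed to 68921 and 70556 against 63731 and 63427, with a median of -0.12 (Calb1 and Car8 were not tested), and Pcp2, which is specific to these cells, was detected on all 4 arrays as the tissue label implies. The sums of the anterior and posterior lobes overlapped for astroglia and Bergmann glia (77612 and 80568 against 78912 and 73602, median -0.097), endothelium (8690.6 and 10088 against 9703.4 and 9287.8, median 0.056, with Cdh5 past the criterion at 0.46) and microglia (4996.9 and 4284.3 against 4984.9 and 4650.9, median 0.034).

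**Figure D5:**
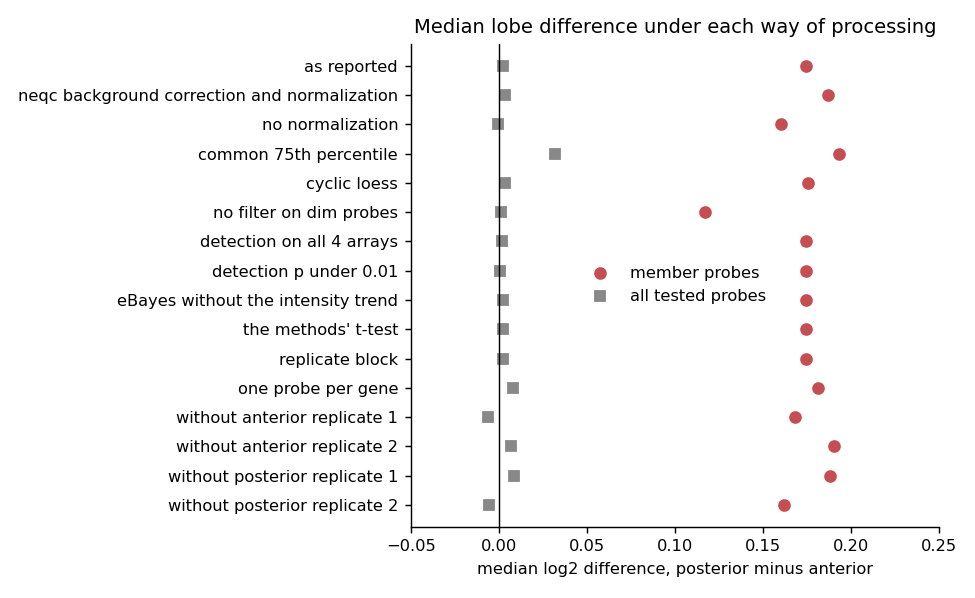
Median posterior minus anterior difference (log2) of the member probes and of all tested probes (x axis) under each processing setting (y axis), with circles for members and squares for all probes. The member median stays between 0.12 and 0.19, and above that of all probes, in each setting shown.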

How the data were processed

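RNA from 2 anterior and 2 posterior cerebellar lobe samples was amplified to labelled cRNA and hybridised to bead arrays. The authors exported the table with GenomeStudio 1.9.0 without normalisation, so the deposited probe intensities are linear and not normalised, and the bead number per probe is the deposited count of beads. The deposited detection score is a fraction, 1 minus the detection p-value. A further 16 columns of values that belong to no sample here (minimum, maximum and the like) were not used. Groups were taken from the sample labels.

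Intensities were quantile normalised between arrays, floored at 1 and taken to log2, as the study's methods set that floor and log base. Probes with a detection score over 0.95 on at least 2 of 4 arrays were fitted in limma 3.58.1 (R 4.3.3; lmFit, eBayes with an intensity trend), posterior minus anterior, and p-values were Benjamini-Hochberg adjusted over the 21726 tested probes. The thresholds of the study's methods (over 1.2-fold, unadjusted p under 0.05, there with a t-test) were applied to the limma p. Spots are averaged per probe in the table, and different probes of a gene were kept apart. Gene names are those of the table. The fit was tested on simulated data. Members and lists were chosen with earlier results of these data known, so no pattern is independent support. Named in full were textbook markers of each role, members past the criterion, and the 5 highest and 5 lowest differences. In the other lists, genes past the criterion and a few regulators were named, except an item that is not reported here. Promoters were matched by symbol to RefSeq. Alternatives covered background correction, normalisation, the filters on dim probes, the variance model, the methods' t-test, the fold threshold, 1 probe per gene, a fit blocked on replicate number, and the removal of each array in turn.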

Additional observations from a re-analysis of the deposited data

How the results depend on the processing

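The direction of the median held throughout. It was 0.16 without normalisation, 0.19 after scaling to a common 75th percentile (where the median of all probes was 0.032), 0.12 without a filter on dim probes, and 0.16 to 0.19 when 1 array was left out. The number of member probes past 1.2-fold and an unadjusted p under 0.05, 10 as reported, was 1 without normalisation, 16 with the 75th percentile, 3 by the methods' t-test, 0 at 1.5-fold, and 1 to 20 when 1 array was left out. The number past the adjusted p was 0 except without anterior replicate 1, where it was 5 (0 to 5 over the arrays left out). Those 5 probes read Nusap1, Kif23, Kif22, Mad2l1 and Cenpa. Among all tested probes 3.3% passed the criterion as higher, and 2.29% did without normalisation, where the members held no excess. The share was 4.5% with the 75th percentile, 1.35% by the methods' t-test and 0.782% at 1.5-fold. Beside 50.6% as reported, 58.3% of all probes were higher in the posterior lobes with the 75th percentile. Counts with 1 array left out rest on a single array in 1 lobe, so nothing is concluded from them. The replicate numbers are shared between the lobes but nothing says that they pair the samples. Same-numbered samples deviated together with a correlation of 0.46 over all tested probes and 0.27 over the members. With the replicate number as a block 12 member probes passed the criterion as higher, where 5.79% of all probes did. In that fit 0 member probes passed the adjusted p, where 2.71% of all probes did. Of the 29 probes named in full, 21 kept their sign in each setting. Top2a (ILMN_1255436) was -0.013 without normalisation and ran from -0.26 to 0.28 when 1 array was left out. In the same way Mcm5 ran from -0.0092 to 0.24, Foxm1 from -0.26 to 0.18 and from -0.13 to 0.20, Melk from -0.32 to 0.17, and Cdc20 from -0.40 to 0.00087, from -0.0012 to 0.15 and from -0.017 to 0.27. Apart from the leaving out of arrays, the cause of these changes was not tested. A slide could not be used as a block, since the table gives none. Of the tested member probes, 4 (of Rrm1, Tyms, Cenph and Tacc3) were not detected on all 4 arrays.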
